A study of Rattus norvegicus with 16 samples.

Results

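The troponins are the calcium switch of the thin filament in striated muscle. They were followed here through 7 genes, which the array's annotation names on 10 of its 31099 probe sets, among 14217 named genes in all. The members were taken by symbol: troponin I as the slow Tnni1 and the fast Tnni2, troponin T as the slow Tnnt1, the fast Tnnt3 and the cardiac Tnnt2, and troponin C as Tnnc1, which slow and cardiac muscle share, and the fast Tnnc2. The arrays came from 4 rats, and the labels used here give no strain, sex or age. Laser captures came from a pair of muscle groups, the recti that turn the eyeball (extraocular muscles, EOM) and the shin muscle tibialis anterior (TA). The groups EOM_synapse and TA_synapse hold regions at the neuromuscular junction, found by staining for acetylcholinesterase, and EOM_fiber and TA_fiber hold regions away from it. No group was treated, and each group held 4 arrays, 1 for each of the title numbers 15, 25, 27 and 29. These numbers were taken to mark the rats, which no label states, and every comparison by rat rests on that reading. Every capture pooled about 1000 junctions or a like amount of fibre.

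Troponin C binds calcium, troponin I holds the filament off until it does, and troponin T ties the complex to tropomyosin. Slow, fast and cardiac isoforms come from separate genes, except that slow and cardiac muscle share the troponin C gene Tnnc1. In limb muscle each fibre type makes mainly its own set, so troponins are widely used as readouts of fibre type. Cardiac troponin T is also made in developing skeletal muscle, before its adult isoforms take over. The extraocular muscles are known for a mixture of fibre types, including slow and multiply innervated fibres and myosins that limb muscle lacks.

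Values are log2(intensity + 16) after quantile normalization, and a fold is on that scale, which understates changes of dim probe sets. Each probe set binds its RNA with its own strength, so levels are compared between groups and never between genes. Group differences were tested with limma over 10416 genes with the rat as a block. A difference is called where its adjusted p is below 0.05 after Benjamini-Hochberg adjustment over all those genes. All 7 genes passed the filter on low values, with 9 of their 10 probe sets. Nothing in the labels beyond the title numbers says how independent the captures were, so the p-values measure the spread between these arrays.

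The labels and the markers were compared first. Of the junction markers on the array, 6 of 6 tested rose at the junction in each muscle. Their summed deposited intensity lay from 10873 to 11765 in EOM_synapse, against 781 to 1315 in EOM_fiber. It lay from 7352 to 10849 in TA_synapse, against 102 to 215 in TA_fiber. The acetylcholine receptor subunit Chrne averaged 11.36 and 10.42 in EOM_synapse and TA_synapse, against 4.99 and 4.39 in EOM_fiber and TA_fiber. The receptor kinase Musk was not above its array's median on any junction array.

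Junction captures also held other cells. The counts of markers that follow are of called differences. Of 6 Schwann cell markers, 5 rose at the junction in each muscle, and their summed intensity was 6466 to 11100 in EOM_synapse against 1618 to 2479 in EOM_fiber. In the limb muscle it was 3147 to 5128 in TA_synapse against 346 to 669 in TA_fiber. Of 5 fibroblast markers tested, 3 rose at the EOM junction and 5 at the TA junction. All 5 were also higher in EOM_fiber than in TA_fiber, with sums of 2919 to 13497 against 1003 to 5073. Of 5 macrophage markers tested, 4 were higher in EOM_fiber than in TA_fiber, with sums of 637 to 1682 against 215 to 374, and 1 was lower at the EOM junction. Of 5 endothelial markers, 2 were higher in EOM_fiber than in TA_fiber, 3 were lower at the EOM junction (median -1.09) and 2 at the TA junction (median -0.73). Their sums were 2382 to 3808 in EOM_fiber, 1216 to 2078 in EOM_synapse, 1612 to 2023 in TA_fiber and 877 to 1440 in TA_synapse. Of 5 smooth muscle and pericyte markers, 2 were lower at each junction, with sums of 610 to 932 and 389 to 521 in EOM_fiber and EOM_synapse and of 464 to 846 and 318 to 614 in TA_fiber and TA_synapse. Endothelial and smooth muscle markers thus moved at the junctions in the same direction as the called troponins, and macrophage and fibroblast markers did so between the fibres. Of the junction markers, 3 of 6 (median 1.20) were also called higher in EOM_fiber than in TA_fiber, as were 2 of 6 Schwann cell markers (median 0.80). None of the 5 skeletal muscle markers was called lower at the EOM junction, though the mean of each was lower there (median difference -0.39). At the TA junction 1 was called lower (median -0.07). The skeletal muscle sum was 47869 to 74542 in EOM_synapse and 86135 to 109779 in EOM_fiber. It was 89669 to 135810 in TA_synapse and 114164 to 215225 in TA_fiber. In such captures fewer fibres of a type and less RNA per fibre cannot be told apart, and the part of the other cells in the differences below was not tested.

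Promoter windows of 4 genes are shown because they belong to the slow and fast genes whose balance is followed below. They come from RefSeq on the rat build GRCr8, and 5 of the 7 members matched its table. Each is the 250 bases before the annotated start, read toward the gene. Capitals mark, on either strand, the E-box CANNTG, the core CACCC and the TATA box TATAAA. For Tnni1 the window is chr13:49781279-49781528 on the plus strand, and for Tnnt1 chr1:78348785-78349034 on the plus strand. For Tnni2 it is chr1:207024240-207024489 on the plus strand, and for Tnnc2 chr3:173935340-173935589 on the minus strand.
Tnni1: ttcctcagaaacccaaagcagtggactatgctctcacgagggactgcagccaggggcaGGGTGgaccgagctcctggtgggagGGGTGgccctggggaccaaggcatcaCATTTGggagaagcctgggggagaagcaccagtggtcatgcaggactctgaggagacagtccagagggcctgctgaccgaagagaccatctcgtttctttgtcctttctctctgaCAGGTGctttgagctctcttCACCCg
Tnnt1: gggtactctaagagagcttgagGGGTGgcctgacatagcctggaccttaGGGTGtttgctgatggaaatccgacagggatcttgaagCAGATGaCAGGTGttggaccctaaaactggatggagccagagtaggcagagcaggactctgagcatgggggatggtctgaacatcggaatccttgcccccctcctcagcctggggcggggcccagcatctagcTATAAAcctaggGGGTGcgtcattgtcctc
Tnni2: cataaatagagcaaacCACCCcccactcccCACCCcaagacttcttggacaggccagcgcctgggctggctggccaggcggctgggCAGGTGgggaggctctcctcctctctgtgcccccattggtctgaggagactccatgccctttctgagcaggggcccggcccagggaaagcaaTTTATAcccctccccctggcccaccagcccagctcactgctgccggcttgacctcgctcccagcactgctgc
Tnnc2: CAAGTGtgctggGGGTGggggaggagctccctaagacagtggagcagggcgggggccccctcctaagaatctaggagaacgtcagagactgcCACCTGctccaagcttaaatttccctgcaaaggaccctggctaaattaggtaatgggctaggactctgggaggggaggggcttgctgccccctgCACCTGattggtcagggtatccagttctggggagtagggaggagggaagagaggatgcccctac

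The E-box, the site that MyoD-type factors bind, was found 2 times in Tnni1, 2 times in Tnnt1, once in Tnni2 and 3 times in Tnnc2. Of all 33469 promoter windows of that length, 65.5% held it. CACCC was found 3 times in Tnni1, 3 in Tnnt1, 2 in Tnni2 and 1 in Tnnc2, and in 49.2% of all windows. TATAAA lay 30 to 25 bases before the start in Tnnt1. In Tnni2 its reverse complement lay 72 to 67 bases before the start, and 12.9% of all windows held the box. CATTCC, the core that TEAD factors bind, and the MEF2 and CArG motifs, searched by name, were not found in these 4 windows. They were found in 12.1%, 2.96% and 1.5% of all windows. No match overlapped another in these windows. These matches are letters in a window and show no binding. On GRCr8 the troponin genes lie in I and T pairs, with 1 protein-coding gene between Tnni1 and Tnnt2 and 5 between Tnni2 and Tnnt3. The neighbour of Tnnt1, with none between, is the cardiac troponin I gene Tnni3, which is outside the 7 members.

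**Figure D1:**
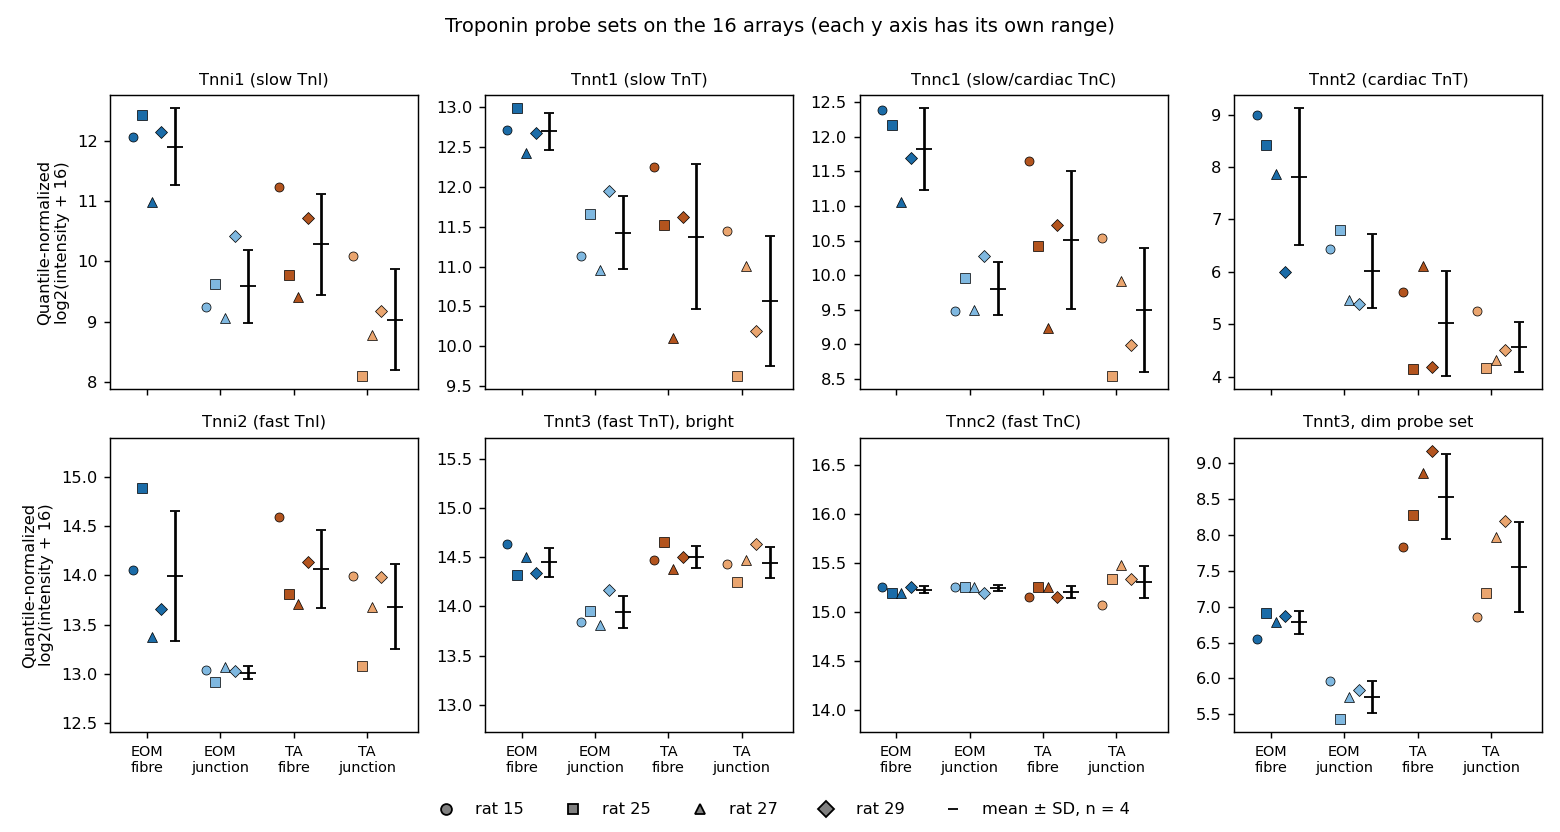
Level of the probe set that stands for each troponin gene, and of the dim Tnnt3 probe set, by group. The scale is log2(intensity + 16) after quantile normalization, with 1 point for each of the 4 rats and a bar at the group mean. The second probe sets of Tnni1 and Tnnt2 are not drawn. The slow genes are highest in EOM_fiber, Tnnt2 falls from EOM_fiber to the limb groups, and Tnnc2 lies between 15.07 and 15.47 on every array.

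The slow troponins had their highest group means in extraocular fibre. Between the fibre groups, Tnni1 and Tnnt1 were called higher in EOM, by 3.07-fold and 2.50-fold, while Tnnc1 was 2.49-fold higher without passing the test. In EOM, Tnni1 and Tnnc1 fell at the junction, by 4.97-fold and 4.06-fold. In TA only Tnni1 was called lower at the junction, by 2.37-fold, and that call was lost without the rat block. Tnnt1 was not called at either junction, nor Tnnc1 at the TA junction, though as deposited Tnnt1 was called lower at the EOM junction.

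Tnni1, slow troponin I, read 12.05, 12.42, 10.98 and 12.15 in EOM_fiber, in the order of rats 15, 25, 27 and 29. It read 11.23, 9.77, 9.42 and 10.71 in TA_fiber. Its junction values were 9.23, 9.63, 9.06 and 10.42 in EOM_synapse and 10.09, 8.10, 8.77 and 9.17 in TA_synapse. EOM_fiber lay above both junction groups on all of its arrays and overlapped TA_fiber only through rat 27 in EOM and rat 15 in TA. The group means, with SD over 4 arrays, were 11.90 ± 0.63 in EOM_fiber, 10.28 ± 0.84 in TA_fiber, 9.59 ± 0.60 in EOM_synapse and 9.03 ± 0.83 in TA_synapse. In that order the neighbours after EOM_fiber lay less than 1 SD of TA_fiber apart. The fibre groups differed by 1.62 ± 0.37 (SE, limma adjusted p = 0.00937), higher in EOM in 4 of 4 rats. Without rat 27 the adjusted p was 0.0505.

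The junction differences of Tnni1 ran the same way in every rat. In EOM the junction was lower by 2.31 ± 0.37, which limma gave as a difference of -2.31 (adjusted p = 0.00135), and the call held in 30 of 30 alternatives. In TA the difference was -1.25 ± 0.37 (limma adjusted p = 0.0473). The TA call was weak: without the rat block the adjusted p was 0.113. It held in 3 of 16 fits that each left out 1 array (EOM_fiber 25, EOM_synapse 15 or TA_synapse 15) and was lost without any other array, at an adjusted p of up to 0.175. It was lost without any 1 rat. A second Tnni1 probe set, 1386873_at, tracked the first, 1371339_at, with r = 0.963 across the 16 arrays. On it the EOM fibre was higher by 1.47 (limma adjusted p = 0.0122) and the EOM junction differed by -2.15 (adjusted p = 0.00162). Its TA junction difference, -0.99, was not called (adjusted p = 0.101).

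Tnnt1, slow troponin T, read 12.71, 12.99, 12.43 and 12.68 in EOM_fiber and 12.26, 11.52, 10.10 and 11.63 in TA_fiber. Its junction values were 11.13, 11.66, 10.96 and 11.96 in EOM_synapse and 11.44, 9.62, 11.01 and 10.19 in TA_synapse. EOM_fiber stood above all other 12 arrays, and the other 3 groups overlapped one another. The means were 12.70 ± 0.23, 11.43 ± 0.46, 11.38 ± 0.91 and 10.57 ± 0.81 (SD, n = 4) in EOM_fiber, EOM_synapse, TA_fiber and TA_synapse. EOM_synapse and TA_fiber did not differ beyond that spread. The fibre difference of 1.32 ± 0.41 was called (limma adjusted p = 0.0447, higher in 4 of 4 rats).

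The Tnnt1 call lay close to the threshold. It held in 10 of 30 alternatives and was lost on the values as deposited (adjusted p = 0.0694). Of the fits that each left out 1 array, 6 of 16 kept it (without TA_fiber 15, EOM_synapse 15 or any 1 TA_synapse array). The largest adjusted p among the others was 0.154, without TA_fiber 27, where the difference was 0.93. It was also lost without any 1 rat. The EOM junction was lower by a difference of -1.27 ± 0.41 that did not pass (limma adjusted p = 0.0683, lower in 4 of 4 rats). As deposited that difference was -1.45 and called (adjusted p = 0.0414), and it passed in 6 of 30 alternatives. The TA junction difference was -0.81 (adjusted p = 0.260), and between the junctions EOM was 0.86 above TA (adjusted p = 0.180), with 2 rats each way.

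Tnnc1, the troponin C of slow and cardiac muscle, read 12.38, 12.17, 11.06 and 11.69 in EOM_fiber and 11.65, 10.42, 9.24 and 10.73 in TA_fiber. At the junctions it read 9.48, 9.95, 9.50 and 10.28 in EOM and 10.53, 8.54, 9.92 and 8.98 in TA. All EOM_fiber arrays lay above all EOM_synapse arrays, while TA_fiber and TA_synapse overlapped. The means were 11.82 ± 0.59, 10.51 ± 0.999, 9.80 ± 0.38 and 9.49 ± 0.90 in EOM_fiber, TA_fiber, EOM_synapse and TA_synapse (SD, n = 4). TA_fiber, EOM_synapse and TA_synapse followed one another by less than the SD of TA_fiber. The EOM junction differed from its fibre by -2.02 ± 0.43 (limma adjusted p = 0.00918, lower in 4 of 4 rats). That call held in 29 of 30 alternatives and was lost without rat 15 (adjusted p = 0.0665). Between the fibres EOM was higher by 1.32 ± 0.43 in 4 of 4 rats, with an adjusted p of 0.0538, and this passed in 7 of 30 alternatives. The TA junction difference was -1.02 ± 0.43 (adjusted p = 0.167).

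Tnnt2, cardiac troponin T, was the member with the largest difference between the fibre groups. On 1367592_at it read 8.99, 8.41, 7.87 and 5.99 in EOM_fiber, and 5.61, 4.15, 6.11 and 4.18 in TA_fiber. At the junctions it read 6.44, 6.79, 5.46 and 5.38 in EOM and 5.25, 4.17, 4.31 and 4.51 in TA. Rats 15, 25 and 27 were high in EOM_fiber, and rat 29 lay within the range of TA_fiber. Every EOM_synapse array lay above every TA_synapse array, the lowest of EOM at 5.38 and the highest of TA at 5.25. The means were 7.82 ± 1.30, 6.02 ± 0.70, 5.01 ± 1.003 and 4.56 ± 0.48 in EOM_fiber, EOM_synapse, TA_fiber and TA_synapse (SD, n = 4). The probe set was dim: it was above its array's median on 4 of 4 EOM_fiber arrays, 2 of EOM_synapse, 1 of TA_fiber and 0 of TA_synapse. It passed the filter of 4 arrays only through EOM_fiber, the group where it was highest. Its calls against EOM_fiber are therefore not independent of that filter.

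The EOM fibre exceeded the TA fibre in Tnnt2 by 2.80 ± 0.47, or 6.98-fold (limma adjusted p = 0.00122, higher in 4 of 4 rats), and the call held in 29 of 29 alternatives. The stricter filter of 8 arrays left Tnnt2 untested and is not among those alternatives. A smaller excess at the junctions, 1.46 ± 0.47 or 2.74-fold, was also called (adjusted p = 0.0486, 4 of 4 rats). It was lost without the rat block (adjusted p = 0.101). It held in 6 of 16 fits that each left out 1 array (EOM_fiber 25 or 29, TA_fiber 25 or 27, EOM_synapse 27 or TA_synapse 29), and the largest adjusted p among the rest was 0.172. It was lost without any 1 rat. Within EOM, Tnnt2 fell at the junction by 3.48-fold, a difference of -1.80 ± 0.47 (adjusted p = 0.0259). That fall was lost without EOM_fiber 15, 25 or 27, without EOM_synapse 15, 27 or 29 and without rat 15 or 27, with an adjusted p of up to 0.0995 over single arrays, and without the rat block (adjusted p = 0.0618). Within TA the difference was -0.45 ± 0.47 (adjusted p = 0.626).

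The second Tnnt2 probe set, 1390061_at, gave none of this. It was above the median on 1 of 16 arrays, ranged from 4.12 to 6.04, and correlated with the first at r = -0.130. Markers of heart muscle were read beside Tnnt2, and 3 of 6 were tested. Nppa, Nppb, Myl7 and Ryr2, the atrial peptide, the ventricular peptide, an atrial light chain and the cardiac calcium release channel, had group means between 4.19 and 5.43. The cardiac myosin Myh6, which some extraocular fibres are also known to make, averaged 8.40 ± 1.10 in EOM_fiber and 8.33 ± 0.44 in EOM_synapse. It averaged 5.19 ± 0.63 in TA_fiber and 5.27 ± 1.31 in TA_synapse (SD, n = 4). The atrial and embryonic light chain Myl4 averaged 12.06 and 12.69 at the EOM and TA junctions, against 6.21 and 6.57 in their fibres, and it set the heart list's sum of 3053 to 5262 in EOM_synapse and 4876 to 8705 in TA_synapse. The sum was 300 to 1060 in EOM_fiber and 146 to 208 in TA_fiber.

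The fast troponins were bright in all groups, and on the probe sets that stand for the genes none passed the test in any comparison. Between EOM_fiber and TA_fiber Tnni2 differed by -0.07 (95% limma interval -0.72 to 0.59) and Tnnt3 by -0.05 (-0.42 to 0.32) after quantile normalization. These values depend on the scaling. As deposited the differences of Tnni2 and Tnnt3 were -0.48 and -0.48, and with arrays centred on a common median -0.63 and -0.63, none of them called. Tnnc2 differed by 0.02, a value set by rank as described below.

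Tnni2, fast troponin I, read 14.06, 14.89, 13.37 and 13.66 in EOM_fiber, 13.03, 12.91, 13.07 and 13.02 in EOM_synapse, 14.59, 13.81, 13.71 and 14.14 in TA_fiber and 14.00, 13.07, 13.68 and 13.98 in TA_synapse. EOM_synapse was the lowest group and lay below every EOM_fiber array, with its highest array equal to the lowest of TA_synapse to 2 decimals but not overlapping it. Its mean was 13.01 ± 0.07, against 14.00 ± 0.66, 14.06 ± 0.40 and 13.68 ± 0.43 in EOM_fiber, TA_fiber and TA_synapse (SD, n = 4). The EOM junction differed from its fibre by -0.99 ± 0.30 (limma adjusted p = 0.0557) and from the TA junction by -0.67 ± 0.30 (adjusted p = 0.152), lower in 4 of 4 rats in both. On the values as deposited these were -1.31 (adjusted p = 0.00798) and -0.96 (adjusted p = 0.0269).

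Tnnt3, fast troponin T, read 14.63, 14.32, 14.51 and 14.34 in EOM_fiber and 13.85, 13.95, 13.81 and 14.17 in EOM_synapse on 1371247_at. In TA it read 14.47, 14.66, 14.38 and 14.51 in fibre and 14.44, 14.25, 14.47 and 14.63 at the junction. Only EOM_synapse stood apart, below all 12 other arrays. Its mean was 13.94 ± 0.16, against 14.45 ± 0.15, 14.50 ± 0.12 and 14.45 ± 0.16 in EOM_fiber, TA_fiber and TA_synapse (SD, n = 4). The differences were -0.51 ± 0.17 from EOM_fiber (limma adjusted p = 0.0818) and -0.50 ± 0.17 from TA_synapse (adjusted p = 0.0620), lower in 4 of 4 rats in both. As deposited both were called, at -0.91 (adjusted p = 0.0468) and -0.84 (adjusted p = 0.0449).

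A second, dim Tnnt3 probe set, 1397499_at, gave another picture. It read 6.55, 6.91, 6.79 and 6.88 in EOM_fiber, 5.96, 5.44, 5.74 and 5.84 in EOM_synapse, 7.83, 8.28, 8.87 and 9.17 in TA_fiber and 6.86, 7.19, 7.97 and 8.20 in TA_synapse. Both EOM groups lay below all TA_fiber arrays, and EOM_fiber and TA_synapse overlapped between 6.86 and 6.91. With every named probe set tested on its own row, it was lower in EOM than in TA by a difference of -1.76 ± 0.26 in fibre (limma adjusted p = 0.000622) and -1.81 ± 0.26 at the junction (adjusted p = 0.000422). It was also lower at the junction than in fibre, by -1.03 ± 0.26 in EOM (adjusted p = 0.0252) and -0.98 ± 0.26 in TA (adjusted p = 0.0302), in 4 of 4 rats each time. In those fits 6.58%, 7.36%, 3.39% and 2.94% of the 13647 named probe sets were called lower, in the same order of contrasts. The Tnnt3 probe sets correlated at r = 0.704 over 16 arrays, and the part of the transcripts that each one reads was not analysed here.

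Tnnc2, fast troponin C, was among the brightest probe sets of every array, ranking from 2 to 9 of 31042. Quantile normalization gives a probe set of that rank nearly the same value everywhere, so its means of 15.23 ± 0.03, 15.24 ± 0.03, 15.20 ± 0.06 and 15.30 ± 0.17 in EOM_fiber, EOM_synapse, TA_fiber and TA_synapse are fixed by rank. On the log2(intensity + 16) scale as deposited the means were 15.36 ± 0.51, 14.81 ± 0.31, 15.56 ± 0.55 and 15.32 ± 0.59 (SD, n = 4). The groups overlap on that scale too, and its EOM junction difference is -0.55 there against 0.02 after normalization. Whether Tnnc2 changed by that much cannot be read from these values.

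**Figure D2:**
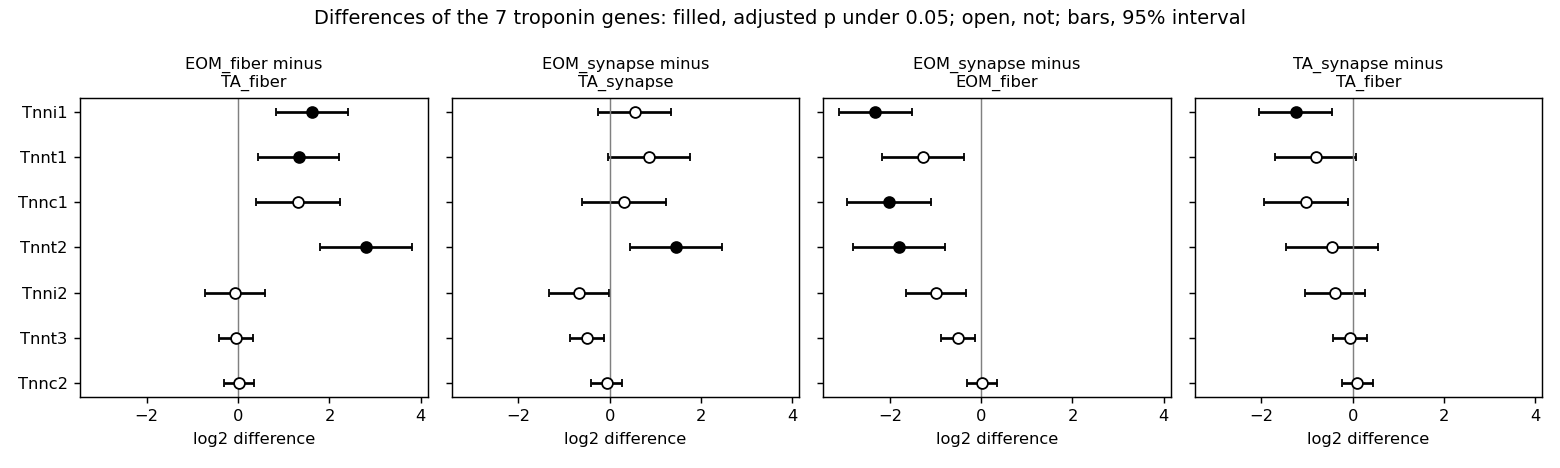
Log2 difference of each troponin gene in the 4 comparisons of groups, as points with 95% limma intervals, filled where the adjusted p over all genes is below 0.05. The slow genes and Tnnt2 lie to the right of 0 between the fibre groups and to the left of 0 at the junctions, while the fast genes lie near 0 between the fibre groups.

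Counted over the members, 3 of 7 were called higher in EOM_fiber than in TA_fiber, where 8.4% of all genes tested were, and none was called lower. As deposited and with centred arrays 2 were. The members' median difference was 1.32 against 0.03 over all genes. Between the junctions 1 of 7, Tnnt2, was called higher in EOM against 7.82% of all genes, and as deposited 2 of 7 were also called lower. At the EOM junction 3 of 7 were called lower than in fibre, against 4.51% of all genes, with a median of -1.27 against -0.04. That count was 6 as deposited, 4 with arrays centred on a common median and 1 to 5 on leaving out 1 array or rat, with 1 without rat 15 and 5 without TA_synapse 25. The shares of all genes given here are those after quantile normalization. Counts under other scalings have no such share beside them and cannot be read against 4.51%. At the TA junction 1 of 7 was called lower, against 3.53% of all genes, with a median of -0.45 against -0.01. Groups did not overlap for 1 of 7 members between the fibres (16.4% of all genes), 3 between the junctions (22.8%), 5 at the EOM junction (17.1%) and 0 at the TA junction (13.2%). The fibre comparison and the EOM junction comparison share the EOM_fiber arrays, so their calls are not independent of each other. Both counts include Tnnt2, which passed the filter only through those arrays.

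The junction difference did not pass the test of a difference between the muscles for any member. The interaction, the EOM junction difference less the TA one, was called for 0 of 7 members by limma, 0 had an unadjusted p below 0.05 on the probe sets that stand for the genes, and 0.922% of all genes were called. The largest estimates were -1.35 ± 0.66 for Tnnt2 and -1.07 ± 0.52 for Tnni1, both at an adjusted p of 0.495. The 95% interval of the Tnni1 interaction ran from -2.19 to 0.06. On the second Tnni1 probe set, 1386873_at, the estimate was -1.16 (95% interval -2.20 to -0.11), below 0 in 4 of 4 rats. It had an unadjusted limma p of 0.0327 and was not called (adjusted p = 0.434).

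The balance of slow against fast isoform was taken within each array, as log2 of the slow gene minus log2 of the fast gene of the same subunit. It shows unequal change of the isoforms and not which has more RNA. Balances below are on quantile-normalized values and depend on the scaling. At the EOM junction Tnni2, Tnnt3 and Tnnc2 differed by -1.31, -0.91 and -0.55 as deposited, against -0.99, -0.51 and 0.02. Tnni1, Tnnt1 and Tnnc1 differed there by -2.33, -1.45 and -2.05, against -2.31, -1.27 and -2.02. As deposited, shifts toward the fast isoform at both junctions are thus smaller for I, T and C, and excesses of EOM over TA are larger. For troponin I the balance was -2.01, -2.48, -2.39 and -1.51 in EOM_fiber and -3.36, -4.04, -4.30 and -3.43 in TA_fiber. It was -3.80, -3.28, -4.01 and -2.60 in EOM_synapse and -3.90, -4.98, -4.90 and -4.81 in TA_synapse. EOM_fiber lay toward the slow isoform of every other array. The EOM fibre exceeded the TA fibre by 1.69 in 4 of 4 rats (exact two-sided permutation p = 0.0286). The exact p of every balance shuffles the arrays of both groups and does not use the rat. The EOM junction differed from its fibre by -1.33 (exact p = 0.0286), and the TA junction from its fibre by -0.87 (exact p = 0.0857). Between the junctions EOM exceeded TA by 1.23 (exact p = 0.0571). Each of these 4 had its sign in 4 of 4 rats.

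For troponin T the balance averaged -1.75 ± 0.33 in EOM_fiber, -2.52 ± 0.31 in EOM_synapse, -3.13 ± 0.86 in TA_fiber and -3.88 ± 0.78 in TA_synapse (SD, n = 4). Both EOM groups lay toward the slow isoform relative to TA, by 1.38 between the fibres and 1.36 between the junctions (exact permutation p = 0.0286 for each). At the EOM junction it moved by -0.77 toward the fast isoform (exact p = 0.0286), and at the TA junction by -0.75 in 3 of 4 rats (exact p = 0.2). With the dim Tnnt3 probe set in place of the bright one the TA value turned to 0.17. At the EOM junction the dim probe set itself differed by -1.03, against -0.51 on the bright one and -1.27 for Tnnt1. The EOM shift toward the fast isoform is therefore smaller with it. Between EOM and TA the dim probe set differed by -1.76 in fibre and -1.81 at the junction, so those excesses are larger with it.

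For troponin C the balance averaged -3.40 ± 0.57, -5.44 ± 0.41, -4.69 ± 1.05 and -5.81 ± 0.99 in EOM_fiber, EOM_synapse, TA_fiber and TA_synapse (SD, n = 4). Since normalization holds Tnnc2 in place, these values move almost wholly with Tnnc1. The EOM junction differed by -2.04 (exact permutation p = 0.0286), the EOM fibre exceeded the TA fibre by 1.29 (exact p = 0.0857), and the TA junction differed by -1.12 (exact p = 0.171). Between the junctions the difference was 0.37 (exact p = 0.514), with 2 rats each way.

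Over the 12 balance tests, 6 reached 0.0286, the smallest p that 4 arrays against 4 allow, and none passed after adjustment, the lowest adjusted value being 0.0571. The change of balance at the junction in EOM minus that in TA averaged -0.46 ± 0.78 for I, -0.01 ± 1.12 for T and -0.92 ± 1.27 for C (SD over 4 rats). For I and T, 2 rats went each way, and for C 1 rose and 3 fell, so a difference between the muscles was not shown.

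**Figure D3:**
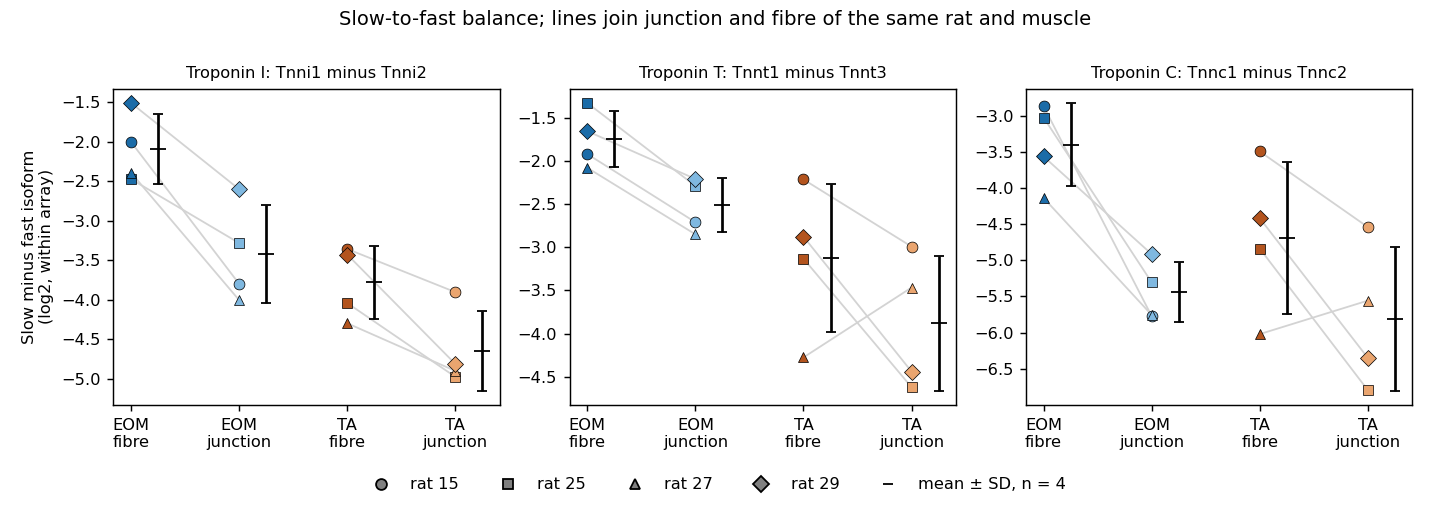
Slow minus fast balance of troponins I, T and C on each array, as the difference of log2 values, by group, with 1 point for each rat and a bar at the mean. For I and T the 4 EOM_fiber arrays lie above the 4 TA_fiber arrays, and in EOM the junction arrays lie below the fibre arrays for all 3 subunits.

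Across the 16 arrays the 3 slow genes varied together. Tnni1 correlated with Tnnt1 at r = 0.914 and with Tnnc1 at r = 0.952, and Tnnt1 with Tnnc1 at r = 0.944. After group means were removed these were 0.824, 0.861 and 0.945, so arrays of the same group that were high in one were high in the others. Rat 25, for example, was the lowest TA_synapse array for all 3, and rat 27 the lowest TA_fiber array for all 3. Tnnt2 did not share this: its r with Tnni1 was 0.646 over all arrays and 0.0600 within groups. The fast Tnni2 shared part of the slow genes' variation within groups, with r = 0.729 with Tnni1, 0.664 with Tnnc1 and 0.572 with Tnnt1. Among the fast genes Tnni2 and Tnnt3 had r = 0.637 over all arrays and 0.0666 within groups. These values are descriptions over 16 arrays that share rats and groups.

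Of the 10409 other genes tested, those most like each member over the 16 arrays were looked up by Pearson r. For Tnni1 they were Myh7, the slow myosin heavy chain, at 0.938, Hrc, a calcium-binding protein of the sarcoplasmic reticulum, at 0.935, and Ankh at 0.887. For Tnnt1 they were Myh7 at 0.887, Ankh at 0.881 and Hrc at 0.865, and for Tnnc1 Myh7 at 0.942, Hrc at 0.879 and the small heat shock protein gene Cryab at 0.861. For Tnnt2 they were Itga7, a laminin receptor of muscle, at 0.920, Lratd1 at 0.911 and Casq2, the cardiac and slow calsequestrin, at 0.910.

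The fast genes had other neighbours. Tnni2 was most like Lsm4 at 0.923, Usp2 at 0.912 and Acp1 at 0.884. Tnnt3 was most like Casq1, the fast calsequestrin, at 0.882, Emc4 at 0.873 and Mrpl33 at 0.869. For Tnnc2 the highest values were Zfp575 at 0.769, Tpm1 at 0.751 and Fbxl19 at 0.750, over values fixed by rank.

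The genes around the troponins were read from lists of the thin filament and of fibre type. Of 10 slow fibre genes tested other than troponins, 3 were called higher and 3 lower in EOM_fiber than in TA_fiber, with a median of -0.30 against 0.03 for all genes. Pln, the regulator of the slow calcium pump, was higher by 3.18, Casq2 by 1.66 and Atp2a2, that pump, by 0.84. Myl3, the slow ventricular light chain, differed by -1.78. The Atp2a2 call held in 9 of 16 fits that each left out 1 array, lost without EOM_fiber 25, 27 or 29, TA_fiber 25 or 27, or EOM_synapse 15 or 27 (adjusted p up to 0.134). Between the fibres the slow list thus held calls in both directions, while the differences of Tnni1, Tnnt1 and Tnnc1 all lay above 0.

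At the junction the slow list fell in both muscles, with 6 of 10 called lower and none higher in each. Its medians were -1.47 in EOM and -1.52 in TA, against -0.04 and -0.01 for all genes. In EOM the largest falls were Myl3 at -2.35, Myl2, the slow regulatory light chain, at -2.33, Myoz2, a Z-disc protein, at -1.86 and Myh7 at -1.84. The Myh7 call was lost without EOM_fiber 25 or EOM_synapse 15 (adjusted p up to 0.0604). In TA they were the stretch-responsive Ankrd2 at -2.03, Myl3 at -1.96, the Z-disc protein Csrp3 at -1.82 and Myl2 at -1.79. The Csrp3 call failed with TA_fiber 15, TA_fiber 27 or TA_synapse 29 left out (adjusted p up to 0.0734), and that of Myl2 with TA_fiber 15, TA_fiber 29, TA_synapse 25 or TA_synapse 29 left out (adjusted p up to 0.0806).

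Of 11 fast fibre genes tested, 6 were called lower at the EOM junction and 1 at the TA junction, each against its own fibre, with medians of -0.70 and 0.03. As deposited 7 and 2 were, with medians of -0.98 and -0.38, so the direction of the TA median turned with the scaling. In EOM these included the IIa myosin Myh2 at -2.22, the fast myosin-binding protein Mybpc2 at -1.33, Casq1 at -1.32 and the fast alpha-actinin Actn3 at -1.03. The gene called in TA was the IIx myosin Myh1 at -0.997, whose call failed with TA_fiber 27, TA_fiber 29 or TA_synapse 29 left out (adjusted p up to 0.0521). Between the junctions 6 of 11 were lower in EOM, led by Mybpc2 at -2.49, Myh2 at -2.19, Actn3 at -2.17 and Mylk2, the skeletal myosin light chain kinase, at -1.86. Between the fibres 4 were lower and 1 higher in EOM. Mylk2 at -1.86, Mybpc2 at -1.04 and Actn3 at -0.995 were lower and Pvalb, the calcium buffer parvalbumin, was higher at 1.07. With arrays centred on a common median Pvalb was 0.74 and not called (adjusted p = 0.0730).

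Of 13 thin filament partners tested, 2 were called higher and 4 lower in EOM_fiber than in TA_fiber, and their median of 0.02 lay at that of all genes. As deposited that median was -0.26 with 1 higher and 4 lower. The pointed-end cap Tmod1 was higher by 1.33, while Lmod3, which nucleates actin, differed by -1.16, Tmod4 by -1.12 and the giant ruler protein Neb by -0.69. The Neb call was lost without EOM_fiber 15, TA_fiber 15 or TA_fiber 29 (adjusted p up to 0.0709). Between the junctions 2 were higher and 4 lower, with Tmod4 at -2.68, Acta1, skeletal actin, at -1.11, Lmod3 at -1.09 and Neb at -0.94.

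Within EOM, 4 of the 13 were lower at the junction, 5 as deposited and 1 with arrays centred on a common median. Tmod4, at -1.20, was called in all of these and without any 1 array. Lmod2, at -1.32, failed with any of EOM_fiber 25, EOM_fiber 29 and EOM_synapse 15, 25 and 27 left out (adjusted p up to 0.0927). Within TA 1 was lower (3 as deposited, 2 with centred arrays), Lmod3 at -0.80, lost without TA_synapse 15 (adjusted p = 0.0514). In TA 1 was higher, Tmod1 at 0.57, which was not called as deposited (0.46, adjusted p = 0.0949). The Tmod1 call held in 4 of 16 fits that each left out 1 array (EOM_fiber 15, 25 or 29, or EOM_synapse 15), with an adjusted p of up to 0.120 in the rest.

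Of 11 regulators of fibre type tested, 2 were higher and 3 lower in EOM_fiber than in TA_fiber. The calcineurin regulator Rcan2 was higher by 2.71, and Prox1, a transcription factor of slow fibres, by 1.32. The transcription cofactor Vgll2 differed by -1.64, Tead1, which binds the CATTCC core, by -1.12 and Sox6, a repressor of slow genes, by -1.10. Between the junctions 4 were higher and 3 lower in EOM. Rcan2 at 5.31, the coactivator Ppargc1a at 1.85 and Eya1 at 1.23 were among the former. Vgll2 at -1.63 and Sox6 at -1.06 were among the latter. Rcan2 had an interaction of 2.60 (limma adjusted p = 0.00574), since its junction difference was 1.25 in EOM and -1.35 in TA. As deposited its EOM junction difference was 0.82 and not called (adjusted p = 0.106). Within EOM, 1 regulator was higher and 2 lower at the junction, among them Prox1 at -1.48. With centred arrays 0 were higher and 1 lower. Within TA 5 were lower at the junction, 4 as deposited and 2 with centred arrays. Ppargc1a, at -1.32, and Rcan2 were called under all 3 scalings and without any 1 array. The other 3 were less stable over the 16 fits that each left out 1 array: Eya1 held in 10, and Prox1 and Vgll2 in 4 each. Eya1 failed with any of TA_fiber 15, 25 and 29 and TA_synapse 25, 27 and 29 left out (adjusted p up to 0.0850). Prox1 held only without EOM_fiber 15 or 25, TA_fiber 15 or TA_synapse 15, and Vgll2 only without EOM_fiber 15, 25 or 29 or TA_synapse 15 (adjusted p up to 0.161 and 0.138 in the rest).

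**Figure D4:**
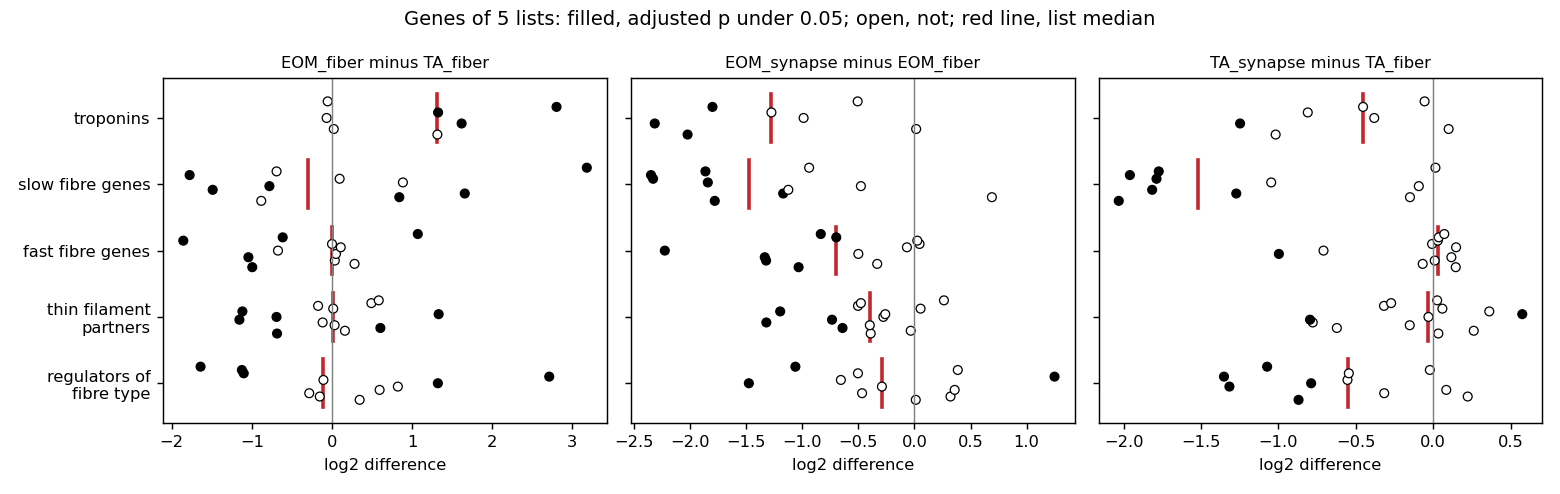
Log2 difference of each tested gene of the troponin, slow fibre, fast fibre, thin filament and regulator lists. The comparisons drawn are EOM_fiber against TA_fiber and each junction against its own fibre. Points are filled where the adjusted p is below 0.05, and a bar marks each list's median. The slow fibre genes have medians of -1.47 and -1.52 at the EOM and TA junctions, with Atp2a2 at 0.69 above 0 in EOM and Pln at 0.01 in TA, while the fast fibre genes have a median of -0.70 at the EOM junction and 0.03 at the TA junction.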

How the data were processed

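Messenger RNA was measured on 16 Affymetrix rat arrays. Per the labels' protocols, RNA captured from 10 µm sections was amplified over a pair of cycles, at 600 ng after the first, and labelled with biotin. The authors deposited linear probe set intensity. Its 2% trimmed mean lay between 150.06 and 150.08 on every array, and the probe summary method is not stated in the labels. Precision is limited by the number of arrays.

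The 57 control probe sets were left out, and 16 was added before log2. Log2 medians of the arrays spanned 0.56, over a limit of 0.5, so arrays were quantile normalized. A gene was tested if its probe set exceeded the median of its array on 4 or more arrays, and its brightest passing probe set stood for it. The array's annotation gave 1 gene for 20832 probe sets and several for 436, with 9780 not listed; symbols were updated through the GRCr8 gene table.

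Contrasts were fitted with limma 3.58.1 in R 4.3.3 (4 group means, rat as a fixed block, Benjamini-Hochberg over all genes, 5 contrasts, 9 residual degrees of freedom) and tested on simulated data. Title numbers were taken to mark animals. Less the group means, 24 same-rat pairs of arrays correlated at a mean r of 0.112 (-0.0666 to 0.245). Pairs of different rats and groups averaged -0.0374. For 14 of 16 arrays, the mean r with the arrays of the other groups, taken by rat, was highest for their own rat. This cannot tell a shared animal from shared processing. Balances were compared by exact permutation of arrays, without the rat as a block. Named genes are all members with every probe set, up to 4 called genes of each list and contrast with 1 sign in all 4 rats, and for each member the 3 most correlated genes. Of the regulators of fibre type, 5 are named between the fibres, between the junctions and at the TA junction. Myh6, Myl4, Chrne, Musk and the other marker genes are named from the marker lists, and the Rcan2 interaction was chosen after its value was seen. The members and lists were chosen with earlier results of these data known. Alternatives covered the block, the normalization, the pseudocount, the filter, the probe set and the omission of single arrays or rats.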

Additional observations from a re-analysis of the deposited data

Results flagged for a closer look

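Each group of 4 was searched for an array far from the other 3, by its gap to the nearest array over the group's range, against the 95% critical value of Dixon's test. Of 52 groups tested, 2 were past it, and chance gives about 1 in 20. For Tnnc2 in EOM_synapse the ratio was 1: rat 29 read 15.20 and the other 3 rats read 15.26, equal to one another because the probe set held the same rank there. For the troponin I balance in TA_synapse it was 0.848: rat 15 read -3.90, and the others lay between -4.98 and -4.81. Without that array the troponin I balance between the junctions was 1.47, with an adjusted exact permutation p of 0.0490. Its unadjusted p was then the smallest that the arrays allow, and all tests at that smallest p shared the adjusted value. The array was chosen from these same values, so the lower p is no support.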

How the results depend on the processing

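The members called in EOM_fiber against TA_fiber numbered 3, and 1 to 4 when an array or rat was left out. In EOM_synapse against TA_synapse 1 was called. It became 0 with no replicate block, with a pseudocount of 1, with no filter and with every named probe set, 2 with arrays centred on a common median or a pseudocount of 64, 3 as deposited, and 0 to 2 when an array or rat was left out. In EOM_synapse against EOM_fiber 3 were called, 6 as deposited and with a pseudocount of 64, and 1 to 5 on leaving one out. In TA_synapse against TA_fiber 1 was called. It became 0 with no replicate block, with a random replicate block, with a pseudocount of 1, with no filter and with every named probe set, 3 with a pseudocount of 64, and 0 to 1 on leaving one out. The interaction stayed at 0 of 7 members in every alternative run. With a pseudocount of 64 the log2 medians of the arrays lay within the limit of 0.5. That run was therefore not quantile normalized, and it is no separate check of the pseudocount. No share of all genes called is given beside these counts, and the cause of these moves was not tested.

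Leaving out an array or rat kept the sign of all 12 balance differences. For I, T and C they ran from 1.49 to 1.83, 0.99 to 1.74 and 0.85 to 1.69 between the fibres, from 0.90 to 1.60, 1.04 to 1.73 and 0.0018 to 0.91 between the junctions, from -1.60 to -1.13, -0.88 to -0.63 and -2.28 to -1.75 at the EOM junction, and from -1.11 to -0.69, -1.28 to -0.45 and -1.64 to -0.72 at the TA junction. Without TA_synapse 15, the I and T differences between the junctions, 1.47 and 1.66, reached an adjusted exact permutation p of 0.0490. The T test stood at the smallest possible unadjusted p with and without that array. Its adjusted value moved only because the I test reached that p too, and every test at that p took the same adjusted value. The replicate block over the 4 rats, by sign flips, cannot give a p under 0.125. With second probe sets the T balance at the TA junction was 0.17. The other T differences kept their sign, smaller at the EOM junction and larger between the muscles. As deposited, the shifts of I, T and C at the junctions are smaller, and the excesses of EOM over TA are larger.

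Uncalled differences near 0 turned their sign. For Tnnc2 the values as deposited, centred and with a pseudocount of 64 were -0.20, -0.35 and -0.20 between the fibres, -0.55, -0.43 and -0.55 at the EOM junction, and -0.24, -0.28 and -0.24 at the TA junction. The pseudocount of 64 left the arrays on the deposited scaling, so its values repeat those as deposited. Leaving out an array or rat gave -0.0172 to 0.059 and -0.0214 to 0.0548 for Tnnc2 between the fibres and at the EOM junction. It gave -0.47 to 0.11 and -0.13 to 0.0405 for Tnni2 and Tnnt3 between the fibres, -0.0554 to 0.77 for Tnnc1 between the junctions, -0.12 to 0.0621 for Tnnt3 at the TA junction, and -0.86 to 0.17 for the Tnnt1 interaction, above 0 without rat 27. Raising the filter to 8 arrays left Tnnt2 untested. As deposited, the median of all genes between the fibres was 0.11. Quantile values hide changes of the brightest probe sets, as for Tnnc2, and 16 arrays with dim probe sets, as for Tnnt2, limit the rest.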
